A study of Mus musculus with 9 samples.

Results

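CXC chemokines are small secreted proteins that direct the movement of leukocytes and are named for a pair of cysteines held apart by a single residue. The members were chosen by gene symbol, and all 10 (Cxcl1, Cxcl2, Cxcl3, Cxcl5, Cxcl9, Cxcl10, Cxcl11, Cxcl13, Cxcl14 and Cxcl16) were found among the 54059 genes of the deposited expression table. Cxcl1, Cxcl2, Cxcl3 and Cxcl5 act through the receptor Cxcr2, recruit neutrophils, and are made quickly by macrophages when Toll-like receptors switch on the transcription factor NF-kB. Cxcl9, Cxcl10 and Cxcl11 act through Cxcr3 on T and NK cells, and their genes respond to interferons. Of the others, Cxcl13 attracts B cells through Cxcr5, Cxcl14 is mostly found in unstimulated epithelia and stroma, and Cxcl16 is made as a membrane protein that binds Cxcr6 and can be shed from the cell surface.

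The 9 libraries held poly-T-selected RNA of peritoneal macrophages from C57BL/6 mice aged 8 weeks, drawn into the peritoneal cavity with 1 ml of starch broth, washed out 3 days later and kept as adherent cultures. All 9 came from cells exposed for 4 h to imiquimod (IMQ), an agonist of Toll-like receptor 7, and unstimulated cells were not analysed here, so every value is a level after IMQ and none is a measure of induction. The 3 wild type libraries came from cells given IMQ alone at 10 µg/ml. The 3 M-Shp2-/- libraries came from mice whose genotype is Lyz2-cre: Shp2 fl/fl (SHP2lyz2-/- in the labels), in which Cre driven by Lyz2 deletes Ptpn11, the gene of the phosphatase SHP2, in monocytes, macrophages and granulocytes, so that other cell types in the dish keep the gene. The IMQ concentration for these 3 libraries is not given in the sources used here. The 3 SHP099 libraries came from wild type cells given SHP099, an allosteric inhibitor of SHP2, at 10 µM for 2 h before IMQ at 10 µg/ml. The comparisons ask how loss or inhibition of SHP2 bears on the response of macrophages to IMQ. The sources do not say whether the libraries of a group came from separate mice, so p-values measure the spread between these libraries, which may be technical.

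Values are FPKM, fragments per kilobase of gene scaled to library depth, as the authors deposited them. Depth ran from 39848445 reads in SHP099 2 to 50979630 in wild type 2. Differences are log2 fold changes on the log2(FPKM + 1) scale, which understates the change of low genes, and were tested with limma on 11450 genes, those averaging 1 FPKM or more over the 9 libraries. The strict rule, with the thresholds of the study's methods, asked for an adjusted p no greater than 0.005 together with a log2 fold change of 1 or more in either direction. The looser rule asked only for an adjusted p no greater than 0.05. For single genes, an exact two-sided permutation test of 3 against 3 libraries cannot go below 0.1.

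Ptpn11 was first checked against the labels. Its FPKM was 45.8, 44.0 and 40.0 in the wild type libraries, 18.6, 17.8 and 18.9 in the M-Shp2-/- libraries, and 43.0, 42.1 and 39.6 in the SHP099 libraries. All M-Shp2-/- libraries were lower than all others, and the SHP099 and wild type libraries overlapped. Ptpn11 fell in M-Shp2-/- against wild type (log2 fold change −1.19, SE 0.10, limma adjusted p 0.0168) and against SHP099 (−1.13, SE 0.08, limma adjusted p 0.0109), both past the looser rule and short of the strict one. The labelled cell type was checked too. All 8 macrophage markers passed the expression filter, with Lyz2 the most abundant at 4743 to 10715 FPKM. Their summed FPKM, most of it from Lyz2, was 10420, 13421 and 11189 in wild type, 7595, 7468 and 8412 in M-Shp2-/- and 11778, 13005 and 13736 in SHP099. In M-Shp2-/- against wild type 6 of the 8 had estimates below 0 (median −0.44), and 0 passed the looser rule. Lyz2, the gene whose locus drives Cre in the M-Shp2-/- mice, was lower in all 3 M-Shp2-/- libraries than in any other (log2 fold change −0.76 against wild type, limma adjusted p 0.388).

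Some libraries stood apart from their group. Over all tested genes, M-Shp2-/- 1 and 2 correlated at r = 0.992, whereas M-Shp2-/- 3 correlated with them at 0.967 and 0.954. Wild type 3 correlated with wild type 1 and 2 at 0.976 and 0.974, against 0.984 between those 2. A list of 10 stromal and mesothelial genes, of which 6 passed the filter and Col1a1 was the most abundant, summed to 66.3, 310, and 41.4 FPKM in wild type, 139, 52.8 and 595 in M-Shp2-/- and 367, 142 and 103 in SHP099. M-Shp2-/- 3, SHP099 1 and wild type 2 were thus the highest in these genes. The members and the pathway lists were therefore also compared without wild type 3 and M-Shp2-/- 3. Fewer cells of a type and less RNA per cell cannot be told apart in these bulk libraries.

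**Figure D1:**
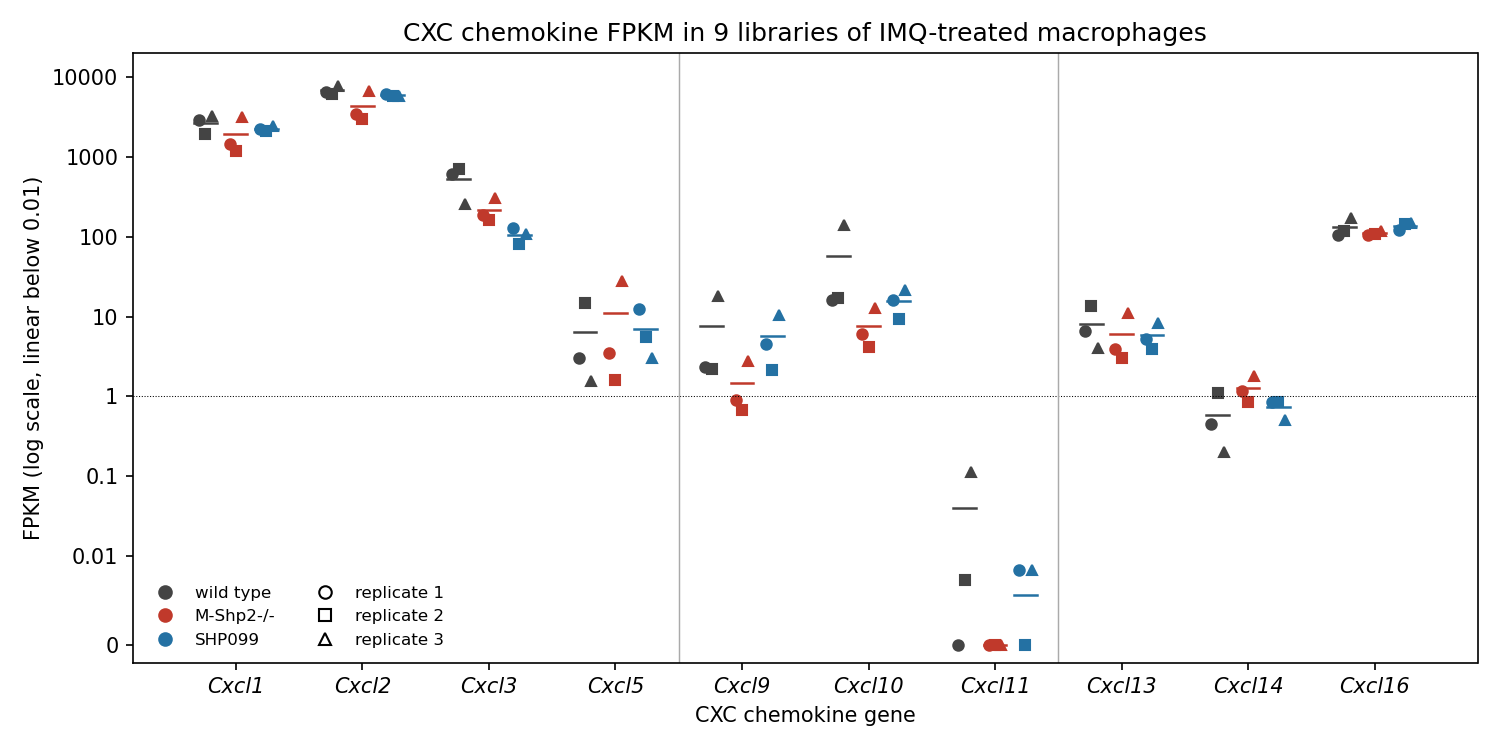
FPKM of the 10 CXC chemokine genes in each library (vertical axis, log scale, linear below 0.01), with each group in its own colour, each replicate number in its own symbol, and short bars at group means. Cxcl1 and Cxcl2 were at 1171 or more in all 9 libraries and Cxcl11 reached at most 0.114. The dotted line marks 1 FPKM, and vertical lines part the neutrophil attractants, the interferon-induced members and the others.

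The members spanned a wide range of levels. By mean FPKM over the 9 libraries the order was Cxcl2 (5701), Cxcl1 (2296), Cxcl3 (285), Cxcl16 (126), Cxcl10 (27.0), Cxcl5 (8.19), Cxcl13 (6.67), Cxcl9 (4.95), Cxcl14 (0.867) and Cxcl11 (0.0153). The ranges over libraries of each pair of neighbours in this order overlapped, with the exceptions of Cxcl1 and Cxcl3 and of Cxcl14 and Cxcl11, although Cxcl2 exceeded Cxcl1 in every library. Cxcl2 ranked between 3rd and 19th of all 54059 genes and Cxcl1 between 20th and 52nd. Together Cxcl1 and Cxcl2 made up 90.2% to 96.9% of the members' summed FPKM, and the 10 members made up 0.642% (M-Shp2-/- 2) to 1.68% (wild type 3) of all FPKM. Cxcl11 and Cxcl14 did not reach the mean of 1 FPKM, so 8 of 10 members were tested.

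The neutrophil attractants lie in a cluster on chromosome 5 that spans 146579 bases in GRCm38, in the order Cxcl5, Ppbp, Pf4, Cxcl3, Cxcl15, Cxcl1 and Cxcl2, all on the plus strand. Cxcl3 (ENSMUSG00000029379) spans positions 90786103 to 90789600, Cxcl1 (ENSMUSG00000029380) 90891241 to 90893115 and Cxcl2 (ENSMUSG00000058427) 90903871 to 90905938. The neighbours were not expressed alike. Pf4, a platelet chemokine that macrophages also make, had a mean of 99.8 FPKM, whereas Ppbp had 0.0304 and Cxcl15 was listed at 0 in all 9 libraries. Because the abundant transcripts of Cxcl1, Cxcl2 and Cxcl3 come from this cluster, the 130 bases just before their RefSeq start sites are printed, 5′ to 3′ on the coding strand, from RefSeq on GRCm38.p6, with matches to the NF-kB consensus in capitals.
Cxcl1, chr5:90891115-90891244, plus strand: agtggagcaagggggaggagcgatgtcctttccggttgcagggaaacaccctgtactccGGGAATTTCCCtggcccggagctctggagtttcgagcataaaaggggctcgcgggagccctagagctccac
Cxcl2, chr5:90903769-90903898, plus strand: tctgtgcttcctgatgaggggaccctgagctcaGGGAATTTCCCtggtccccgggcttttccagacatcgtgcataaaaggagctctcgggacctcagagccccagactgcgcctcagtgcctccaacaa
Cxcl3, chr5:90785971-90786100, plus strand: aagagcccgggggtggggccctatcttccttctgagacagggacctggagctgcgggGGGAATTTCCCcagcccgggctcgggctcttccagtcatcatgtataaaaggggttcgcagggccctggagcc
The run in capitals was the same in all 3 and held the NF-kB consensus on both strands, GGGAATTTCC on the coding strand overlapping a match on the other strand that lies opposite GGAATTTCCC. It began 71 bases before the RefSeq start of Cxcl1, 97 before that of Cxcl2 and 73 before that of Cxcl3. The spans given above are from GENCODE, which starts Cxcl1 4 and Cxcl2 28 bases earlier and Cxcl3 2 bases later than RefSeq, so the printed ends of Cxcl1 and Cxcl2 lie within those spans. Of the 10 members, 7 had a 300-base window in the table (250 bases before to 50 after the start), all but Cxcl5, Cxcl11 and Cxcl16. An NF-kB match on either strand occurred in 4 of these 7 windows and in 4.51% of all 32851 windows. A match describes the letters only and was not tested for binding.

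Cxcl2, also known as MIP-2, was the most abundant member. Its FPKM was 6580, 6162 and 7742 in wild type, 3396, 2983 and 6782 in M-Shp2-/- and 6207, 5728 and 5732 in SHP099. M-Shp2-/- 1 and 2 were lower than every other library by a wide margin, and M-Shp2-/- 3 lay among the wild type values. Cxcl1, also known as KC, was 2903, 1912 and 3252 FPKM in wild type, 1452, 1171 and 3192 in M-Shp2-/- and 2226, 2090 and 2468 in SHP099, with the same pair of libraries lowest. The ratio of Cxcl2 to Cxcl1 stayed between 2.13 and 3.22 in all 9 libraries.

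Cxcl3 differed from these neighbours. Its FPKM was 617, 715 and 259 in wild type, 188, 160 and 303 in M-Shp2-/- and 129, 81.9 and 109 in SHP099. All SHP099 libraries were lower than all wild type and all M-Shp2-/- libraries, while wild type and M-Shp2-/- overlapped, wild type 3 being lower than M-Shp2-/- 3. The ratio of Cxcl2 to Cxcl3 was 10.7, 8.62 and 29.9 in wild type, 18.1, 18.6 and 22.4 in M-Shp2-/- and 48.2, 70.0 and 52.6 in SHP099. The SHP099 ratios were all above the others, and wild type 3 stood nearer to them than wild type 1 and 2 did. Transcripts of Cxcl2 and Cxcl3 share 101 stretches of 75 bases (4.57% of those of Cxcl2 and 2.78% of those of Cxcl3), and no other members share any, so reads from these stretches could be assigned to either gene. If reads were spread evenly along Cxcl2, its shared stretches would hold 16909, 14169 and 15595 reads in SHP099, more than the 12765, 7363 and 10779 reads recovered for Cxcl3 there, and 18125, 19502 and 20444 in wild type, beside 61817, 82299 and 24896 for Cxcl3. How such reads were counted is not given in the sources used here, and their part in the Cxcl3 values was not tested.

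Cxcl5, the remaining neutrophil attractant, was low and uneven. Its FPKM was 2.99, 14.8 and 1.56 in wild type, 3.54, 1.58 and 28.3 in M-Shp2-/- and 12.5, 5.48 and 3.04 in SHP099. The highest library of each group, wild type 2, M-Shp2-/- 3 and SHP099 1, was also the highest of its group in the summed stromal and mesothelial genes, and the part of stromal cells in the Cxcl5 values was not tested.

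**Figure D2:**
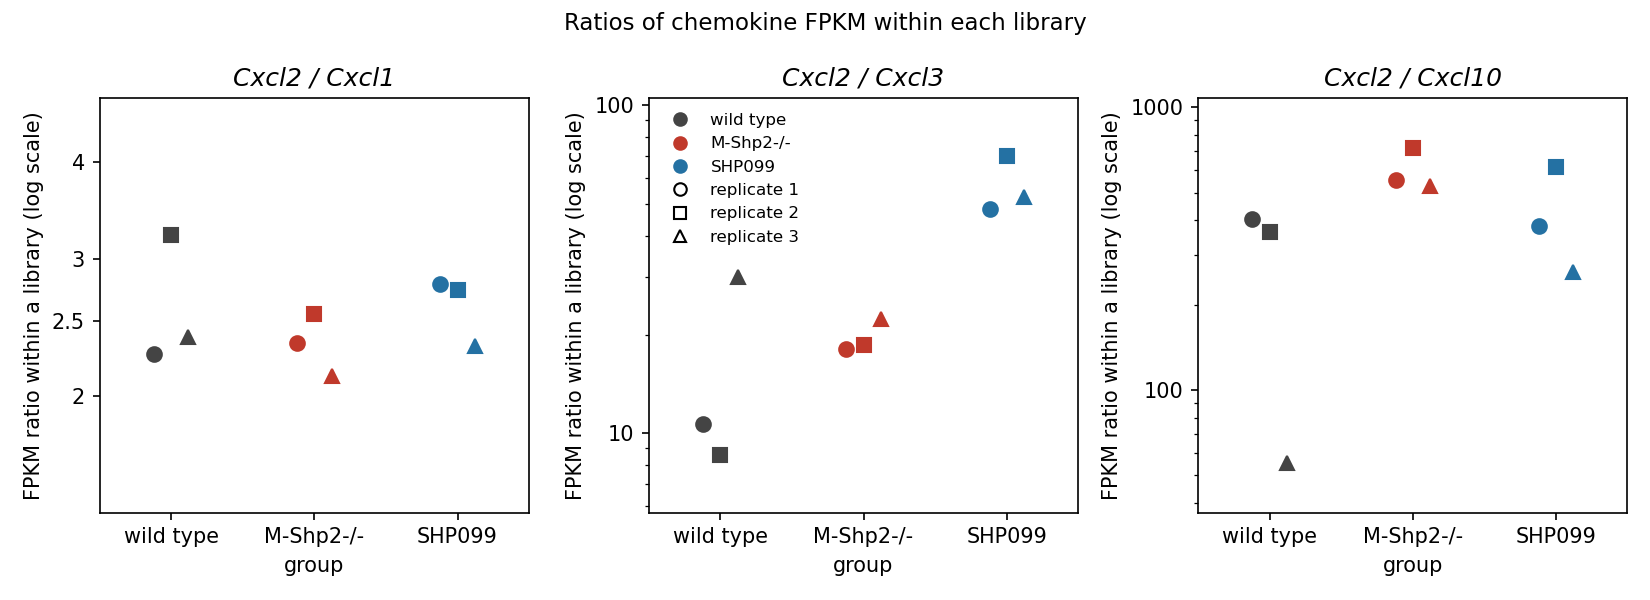
Ratio of Cxcl2 to Cxcl1, Cxcl3 and Cxcl10 within each library (vertical axes, log scales of FPKM ratios), by group and replicate. Cxcl2 over Cxcl3 was 48.2 to 70.0 in SHP099 and at most 29.9 elsewhere, and Cxcl2 over Cxcl10 was lowest in wild type 3 at 55.4.

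The interferon-induced members lie in a separate cluster on chromosome 5, spanning 44139 bases, on the minus strand. Cxcl10 (ENSMUSG00000034855) spans 92346638 to 92348889 of GRCm38 between Cxcl9 and Cxcl11. Its last 250 bases before the start are printed because its levels went with those of interferon-stimulated genes, with motif matches in capitals.
Cxcl10, chr5:92348890-92349139, minus strand: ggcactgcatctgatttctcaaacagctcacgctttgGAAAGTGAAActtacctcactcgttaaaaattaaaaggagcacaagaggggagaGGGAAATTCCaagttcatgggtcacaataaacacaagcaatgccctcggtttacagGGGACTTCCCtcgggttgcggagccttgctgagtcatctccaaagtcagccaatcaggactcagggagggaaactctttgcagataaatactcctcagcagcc
The first capitals, GAAAGTGAAA, match the interferon-stimulated response element searched as GAAA repeated after any 2 bases, which occurred in 2 of 7 member windows (Cxcl10 and Cxcl14) and in 3.44% of all windows. The next 2 runs, GGGAAATTCC and GGGACTTCCC, match the NF-kB consensus. The STAT-binding motif TTCNNNGAA was found in the window of Cxcl14 alone among the 7 and in 8.3% of all windows.

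Cxcl10, also known as IP-10, was 16.3, 16.9 and 140 FPKM in wild type, 6.11, 4.14 and 12.8 in M-Shp2-/- and 16.4, 9.28 and 21.8 in SHP099. Wild type 3 was far above every other library, and all M-Shp2-/- libraries were lower than all wild type ones, with M-Shp2-/- 3 the nearest. Cxcl9, also known as MIG, was 2.35, 2.21 and 18.3 FPKM in wild type, 0.895, 0.671 and 2.80 in M-Shp2-/- and 4.60, 2.16 and 10.5 in SHP099. It too was highest in wild type 3 and lowest in M-Shp2-/- 1 and 2, but M-Shp2-/- 3 exceeded wild type 1 and 2. The ratio of Cxcl10 to Cxcl9 was 6.94, 7.65 and 7.61 in wild type, 6.82, 6.18 and 4.58 in M-Shp2-/- and 3.56, 4.30 and 2.07 in SHP099, so every SHP099 library held fewer Cxcl10 fragments per Cxcl9 fragment than every other library. Cxcl11 was listed at 0 in 5 libraries, held under 3 reads in 8, and reached 0.114 FPKM (13 reads) in wild type 3. Its transcripts were thus not detectable at this depth in most libraries, where 3 reads correspond to 0.0219 to 0.0280 FPKM. The gene is annotated as a polymorphic pseudogene, and C57BL/6 mice are known to carry an allele that makes no full-length protein. Exons of Cxcl10 overlap those of Art3 and exons of Cxcl11 those of Gm2673 on the opposite strand, and since the strand setting of the counting is not given in the sources used here, reads of each pair cannot be told apart. Art3 was at 0.00248 FPKM on average.

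Of the other members, Cxcl16 was the most even. Its FPKM was 104, 117 and 171 in wild type, 105, 109 and 117 in M-Shp2-/- and 120, 145 and 148 in SHP099, with wild type 3 highest and all M-Shp2-/- libraries below all SHP099 ones. Its exons overlap those of Zmynd15 on the opposite strand. Cxcl13 was 6.53, 13.7 and 4.09 FPKM in wild type, 3.89, 3.02 and 11.2 in M-Shp2-/- and 5.17, 3.95 and 8.37 in SHP099, highest in wild type 2 and M-Shp2-/- 3, and the groups overlapped. Cxcl14, on chromosome 13, ranged from 0.200 FPKM in wild type 3 to 1.78 in M-Shp2-/- 3.

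The first comparison was M-Shp2-/- against wild type. Point estimates of 7 of the 8 tested members were below 0, from −2.14 for Cxcl10 to −0.21 for Cxcl16, with Cxcl5 at 0.36, and 0 of 8 members passed the strict or the looser rule with limma or with voom. At an unadjusted p under 0.05 limma gave 2 members (Cxcl3 and Cxcl10) and 1204 genes. Across all genes 0.00873% passed the strict rule (1 gene, Il6, named after its values were seen) and 0.0873% the looser one (10 genes). Groups did not overlap for 1 of 8 members, Cxcl10, against 19.1% of all genes. Cxcl10 had a log2 fold change of −2.14 (SE 0.84, limma adjusted p 0.465), Cxcl3 −1.21 (SE 0.42, limma adjusted p 0.465), Cxcl2 −0.73 (SE 0.31, limma adjusted p 0.478) and Cxcl1 −0.58 (SE 0.40, limma adjusted p 0.544). Cxcl9 stood at −1.37 (SE 0.73, limma adjusted p 0.496).

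These values rested on the libraries that stood apart. Without M-Shp2-/- 3 the log2 fold change was −1.09 for Cxcl2 and −1.01 for Cxcl1, with limma adjusted p of 0.115 and 0.223. Without wild type 3 it was −1.15 for Cxcl10 and −0.52 for Cxcl9. With both left out, Cxcl3 fell by the looser rule (log2 fold change −1.93, limma adjusted p 0.0438, all 4 libraries apart by group), Cxcl2 stood at −1.00 and Cxcl10 at −1.54 (limma adjusted p 0.0856 each), and 0.0699% of all genes passed that rule. Over the other alternatives the limma adjusted p of Cxcl3 reached 0.890 at most.

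The second comparison was SHP099 against wild type. Cxcl3 was the member with the lowest estimate, a log2 fold change of −2.20 (SE 0.38, 95% interval −3.09 to −1.32), lower in 3 of 3 SHP099 libraries. It passed the looser rule (limma adjusted p 0.0240) and missed the strict one. Thus 0 of 8 members passed the strict rule with limma and with voom, against 0.166% of all genes (19 genes), and 1 of 8 passed the looser rule with either tool, against 6.96% (797 genes). Leaving out 1 library took these 797 genes to as few as 47 (without SHP099 2) and as many as 1273 (without wild type 3), and without the expression filter 74 passed. At an unadjusted p under 0.05 limma gave 1 member and 3061 genes. Groups did not overlap for 1 member, again Cxcl3, against 34.6% of all genes. The other estimates were −1.14 for Cxcl10 (SE 0.79), −0.33 for Cxcl13, −0.22 for Cxcl1, −0.21 for Cxcl2, −0.01 for Cxcl9, 0.10 for Cxcl16 and 0.38 for Cxcl5, with limma adjusted p from 0.354 to 0.995. Intervals for Cxcl1 (−0.69 to 0.26) and Cxcl2 (−0.51 to 0.10) were narrower than those of Cxcl9 (−1.81 to 1.79) and Cxcl10 (−3.01 to 0.73).

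Leaving out wild type 3, whose Cxcl3 was the lowest of its group, took Cxcl3 to −2.65 with a limma adjusted p of 0.00410, past the strict rule, which 0.227% of all genes then passed (26 genes). Leaving out SHP099 1, 2 or 3 or wild type 1 ended the call, with limma adjusted p of 0.0760, 0.125, 0.0800 and 0.0669. Over all 14 alternatives it lay between 0.00410 and 0.125, and 9 of 14 kept it at or below 0.05. Without wild type 3, Cxcl10 stood at −0.14 and Cxcl9 at 0.84.

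The third comparison set M-Shp2-/- against SHP099 and so tested whether the groups differed from one another. Cxcl3 was higher in all M-Shp2-/- libraries than in all SHP099 libraries (log2 fold change 0.99, SE 0.26, limma adjusted p 0.279), and Cxcl16 was lower in all of them (−0.31, SE 0.10, limma adjusted p 0.335). Groups thus did not overlap for 2 of 8 members, against 17.7% of all genes. Cxcl9 stood at −1.36 (SE 0.52, limma adjusted p 0.371), Cxcl10 at −1.00 (SE 0.42, limma adjusted p 0.397), Cxcl2 at −0.52 and Cxcl1 at −0.36. With limma 0 of 8 members passed either rule, against 0% of all genes for the strict one (0 genes) and 0.0699% for the looser one (8 genes), and 0 passed with voom. At an unadjusted p under 0.05 limma gave 3 members (Cxcl3, Cxcl9 and Cxcl16) and 1437 genes.

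Without M-Shp2-/- 3, 4 members passed the looser rule, as did 19.9% of all genes (2277 genes). Cxcl2 fell by 0.89 (limma adjusted p 0.00371) and Cxcl1 by 0.79 (limma adjusted p 0.00919) on the log2 scale in M-Shp2-/-. Cxcl10 fell by 1.40 (limma adjusted p 0.0332) and Cxcl3 rose by 0.72 (limma adjusted p 0.0409). None of these passed the strict rule. Over all 14 alternatives the limma adjusted p ranged from 0.00371 to 0.868 for Cxcl2, 0.00919 to 0.976 for Cxcl1, 0.0332 to 0.795 for Cxcl10 and 0.0387 to 0.738 for Cxcl3.

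**Figure D3:**
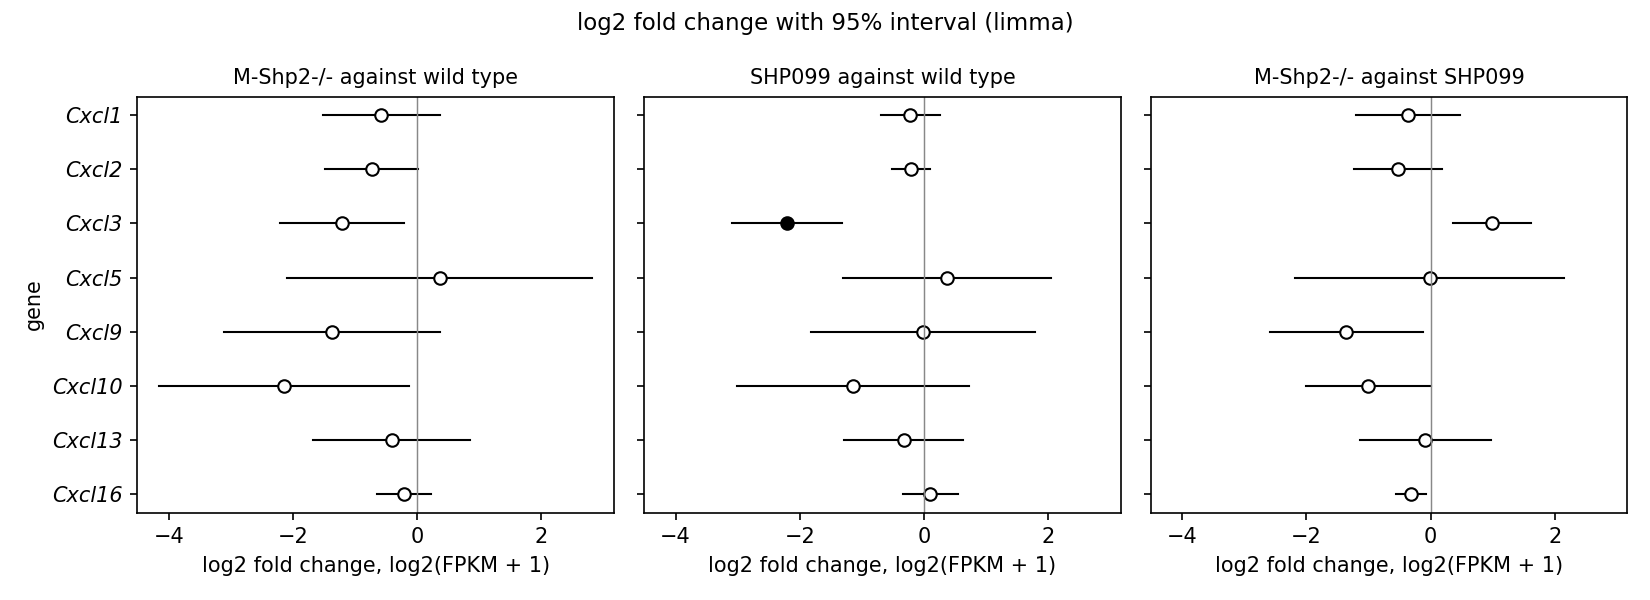
Log2 fold change on the log2(FPKM + 1) scale (horizontal axis) with its 95% interval for the 8 tested members (vertical axis) in the 3 comparisons, 3 libraries a group. The filled point marks a limma adjusted p of at most 0.05, which Cxcl3 alone reached, in SHP099 against wild type. Open points did not reach it.

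The classes were also set side by side. The median log2 fold change of the 4 neutrophil attractants was −0.65 in M-Shp2-/- against wild type, −0.21 in SHP099 against wild type and −0.19 in M-Shp2-/- against SHP099. That of the 3 interferon-induced members was −1.37, −0.05 and −1.00 in the same order, where −0.05 is the value of the barely detected Cxcl11. Over the 2 tested ones, Cxcl9 and Cxcl10, it was −1.76, −0.58 and −1.18. The order of the classes in SHP099 against wild type thus depended on whether Cxcl11 was counted. The median of all genes was 0.15, 0.13 and 0.02. After median-of-ratios scaling, which took those medians to −0.01 each, the class medians were −0.83, −0.36 and −0.20 for the neutrophil attractants and −1.50, −0.14 and −1.02 for the interferon-induced members. On that scale Cxcl16 in SHP099 against wild type turned from 0.10 to −0.05, and no other tested member changed direction. The class medians are descriptions without a test, and the wild type, M-Shp2-/- and SHP099 libraries each served in 2 of the 3 comparisons. With voom the interferon-induced median was −2.05 in M-Shp2-/- against wild type and −0.97 in SHP099 against wild type, with a pseudocount of 0.1 FPKM it was −1.85 and −0.32, and with a pseudocount of 5 FPKM it was −0.75 and −0.07. Both voom values and the −0.32 were those of Cxcl11. With voom Cxcl9 and Cxcl10 stood at −1.88 and −2.25 in M-Shp2-/- against wild type, and at 0.11 and −1.13 in SHP099 against wild type. Leaving out single libraries moved the median of the 3 interferon-induced members between −1.81 and −0.52 in M-Shp2-/- against wild type, −0.50 and 0.0029 in SHP099 against wild type, and −1.40 and −0.69 in M-Shp2-/- against SHP099. The neutrophil attractant median then ran from −1.05 to −0.39, from −0.36 to −0.14, and from −0.84 (without M-Shp2-/- 3) to 0.32 in the same order. In M-Shp2-/- against wild type without wild type 3, the medians were −0.53 for the neutrophil attractants and −0.52 for the interferon-induced members with Cxcl11. Over the tested interferon-induced members alone, the median there was −0.83. Without wild type 3 and M-Shp2-/- 3, a setting chosen after seeing the data, the class medians were −1.11 and −0.88. The tested interferon-induced members then had −1.21, so in that setting the order of the classes depended on whether Cxcl11 was counted. The ratio of Cxcl2 to Cxcl10 within a library was 403, 364 and 55.4 in wild type, 556, 720 and 529 in M-Shp2-/- and 379, 617 and 263 in SHP099. All M-Shp2-/- libraries were above all wild type ones in this ratio, and SHP099 overlapped with both.

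Genes whose FPKM went most closely with a member over the 9 libraries are given as a description, with Pearson's r of log2(FPKM + 1) and n = 9. For Cxcl2 they were Dusp1 (0.954), Cnksr3 (0.934), Pde4b (0.929), its neighbour Cxcl1 (0.929) and Btg1 (0.923). For Cxcl10 they were Ifi206 (0.984), Ugcg (0.979), Ifi204 (0.976), Ifit2 (0.975) and Gbp4 (0.973). The Cxcl13 set was Tlr4 (0.927), Mt2 (0.912), Ywhaz (0.897), Rps6ka3 (0.888) and Pabpc1 (0.888), and the Cxcl16 set was Pkp4 (0.978), Pnp2 (0.954), Gch1 (0.952), Trim12c (0.951) and Clec2d (0.939).

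Beside the interferon-induced members, a list of 16 interferon-stimulated genes was measured, of which 15 passed the filter. Its summed FPKM was 470, 543 and 1643 in wild type, 275, 353 and 423 in M-Shp2-/- and 612, 408 and 845 in SHP099, with Gbp2, a guanylate-binding GTPase, the most abundant. Wild type 3 was highest and all M-Shp2-/- libraries were below all wild type ones, as for Cxcl10. Estimates were below 0 for 15 of 15 genes in M-Shp2-/- against wild type (median −1.29), 14 of 15 in SHP099 against wild type (median −0.75) and 15 of 15 in M-Shp2-/- against SHP099 (median −0.34), and 0 passed the looser rule with limma in any comparison. The SHP099 values rested on wild type 3. Without it 9 of 15 estimates were below 0 in SHP099 against wild type (median −0.19), and Oasl1 and Usp18 fell by the looser rule, which 11.1% of all genes then passed. In M-Shp2-/- against wild type all 15 stayed below 0 without wild type 3 (median −0.57) and without wild type 3 and M-Shp2-/- 3 (median −0.76). Without M-Shp2-/- 3 all 15 stayed below 0 against SHP099 too (median −0.76), and Gbp2 fell by the looser rule, which 19.9% of all genes passed. Gbp2, Gbp5 and Gbp3 were the highest of the list, and Gbp2 ranged from 113 FPKM in M-Shp2-/- 1 to 420 in wild type 3. Ifnb1, the interferon-beta gene, was listed at 0 in 7 libraries and at 0.0314 FPKM at most. Of 17 genes of interferon signalling, 16 were tested, and 2 fell in SHP099 against wild type by the looser rule, the IMQ receptor gene Tlr7 (−0.75, limma adjusted p 0.0314) and the kinase gene Jak2 (−0.57, limma adjusted p 0.0485), as against 6.96% of all genes. Without wild type 3 Tlr7 again fell, Jak2 did not pass, and Irf1 and Ifngr1 rose. In M-Shp2-/- against SHP099 0 passed on all libraries, and 4 fell and 2 rose without M-Shp2-/- 3. Irf1, Jak1 and Jak2 were the most abundant of these 17, Irf1 reaching 1062 FPKM in wild type 3 against 190 to 673 in all other libraries.

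**Figure D4:**
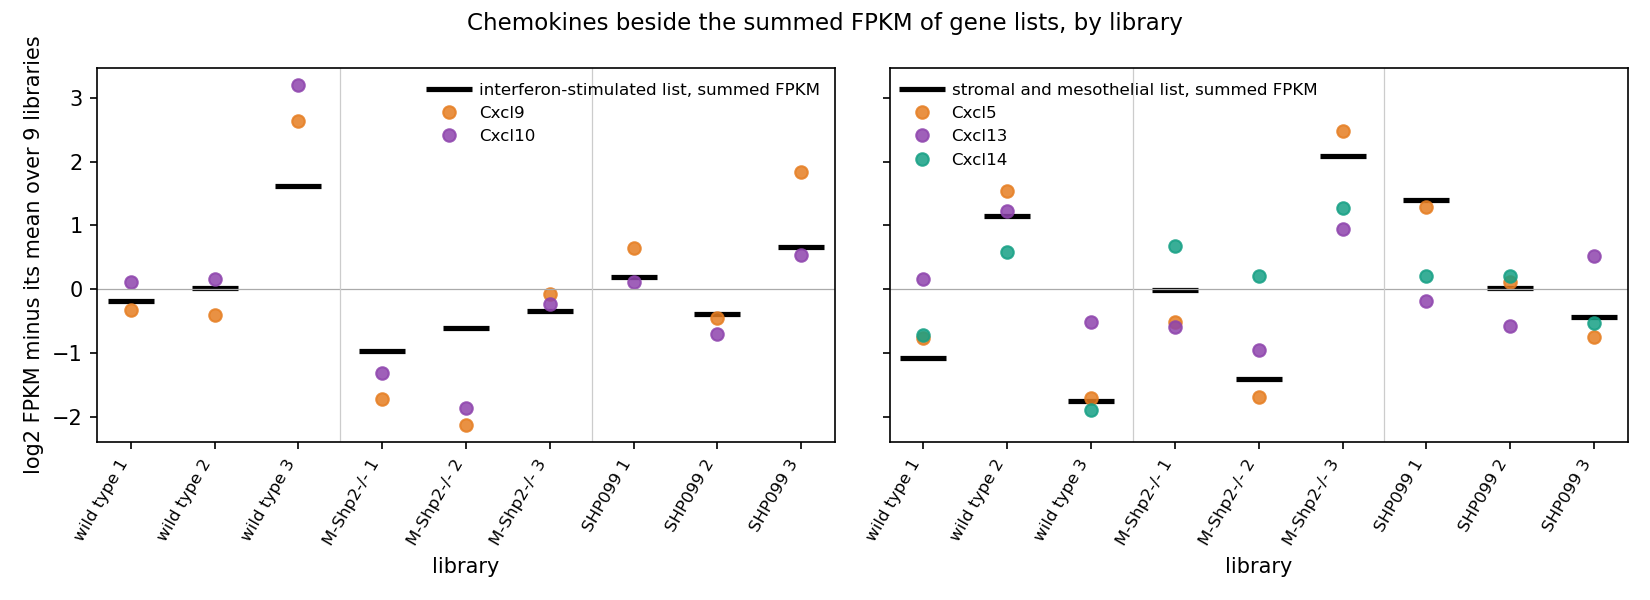
Log2 FPKM minus its mean over the 9 libraries (vertical axis) by library, for Cxcl9 and Cxcl10 beside the summed FPKM of the interferon-stimulated list (left) and for Cxcl5, Cxcl13 and Cxcl14 beside the summed stromal and mesothelial list (right). Wild type 3 was the highest library on the left, and the stromal sum on the right was highest in M-Shp2-/- 3, at 595 FPKM.

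For the neutrophil attractants the list was 16 genes of NF-kB signalling and mRNA decay, all tested. In SHP099 against wild type 3 fell by the looser rule, namely Nfkb2 (−0.60, limma adjusted p 0.0131), the NF-kB cofactor gene Bcl3 (−0.96, limma adjusted p 0.0136) and Zc3h12a, which encodes an RNase that cleaves cytokine transcripts (−0.58, limma adjusted p 0.0228), as against 6.96% of all genes. Without wild type 3 these 3 and Ikbkb fell and Rela and Relb rose, with 11.1% of all genes passing. In the other comparisons 0 of 16 passed with limma on all libraries, but without M-Shp2-/- 3, where 19.9% of all genes passed, 4 fell and 3 rose in M-Shp2-/- against SHP099. Nfkbia, Tnfaip3 and Nfkb1 were the most abundant, and Nfkbia, which encodes the inhibitor IkB-alpha, lay between 397 and 622 FPKM in all libraries.

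Receptor genes were mostly low. Of 8 CXC receptor genes 2 were tested, Cxcr4 at 15.7 to 49.1 FPKM and Cxcr6 at 0.294 to 3.15. Cxcr2, the receptor for the neutrophil attractants, reached at most 0.0352 FPKM and Cxcr3, the receptor of the interferon-induced ligands, at most 0.231, while the decoy receptor gene Ackr1 was listed at 0 throughout. Cxcr1, Ackr3 and Cxcr5 were below 1 FPKM on average but reached 3.51, 2.15 and 1.55. Neither tested receptor passed the looser rule in any comparison with limma on all libraries. Cxcr6 was lower in all M-Shp2-/- libraries than in all SHP099 libraries (−1.11, limma adjusted p 0.275), as was its ligand Cxcl16. Groups did not overlap for 17.7% of all genes there. Cxcr6 fell by the looser rule without M-Shp2-/- 3, where 19.9% of all genes passed. Of 5 other CXC ligand genes, Pf4 and Cxcl12 were tested and 0 passed. Pf4 was 105, 115 and 100 FPKM in wild type, 65.7, 59.3 and 177 in M-Shp2-/- and 93.7, 73.2 and 110 in SHP099, again with M-Shp2-/- 3 far above M-Shp2-/- 1 and 2. Cxcl12, mostly a product of stromal cells, stayed below 3 FPKM and was highest in M-Shp2-/- 3 at 2.78.

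Enzymes that cut or shed chemokines were also measured, and 5 of 6 were tested. In SHP099 against wild type Adam10, a sheddase of Cxcl16, rose by the looser rule (0.49, limma adjusted p 0.0366), from 59.1, 68.6 and 58.0 FPKM to 92.6, 90.6 and 79.5. Mmp12, a macrophage elastase that can cleave neutrophil attractants, fell (−1.73, limma adjusted p 0.00846), from 172, 106 and 156 FPKM to 47.0, 38.7 and 40.8, and Mmp9 fell too (−1.38, limma adjusted p 0.0329). Adam17 (137 to 243 FPKM) and Mmp8 (2.80 to 10.4 FPKM) did not pass, and Dpp4, which trims Cxcl9 and Cxcl10, was too low to be tested. Over all genes 6.96% passed. The same 3 passed without wild type 3, as did 11.1% of all genes. In the other comparisons 0 of 5 passed with limma on all libraries, and Mmp12 was 205, 212 and 51.0 FPKM in M-Shp2-/-, with M-Shp2-/- 3 near the SHP099 values. Without that library Mmp12 and Mmp8 rose and Adam10 fell in M-Shp2-/- against SHP099, where 19.9% of all genes passed.

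Markers of other cells were counted beside the members. Of 9 neutrophil markers 4 were tested, with Csf3r and S100a8 the most abundant, while Ly6g was listed at 0 in 7 libraries and Retnlg in 8. Their summed FPKM was 125, 169 and 159 in wild type, 105, 105 and 179 in M-Shp2-/- and 113, 115 and 152 in SHP099. The T and NK cell list, whose cells carry Cxcr3, summed to 0.761, 2.84 and 5.80 in wild type, 0.357, 0.355 and 3.26 in M-Shp2-/- and 5.85, 4.48 and 3.95 in SHP099, with 0 of 7 markers tested and Cd3g the most abundant. These sums were lowest in M-Shp2-/- 1 and 2, the libraries lowest in Cxcl9 and Cxcl10. The other libraries did not keep this order. The sum was 5.85 in SHP099 1 and 5.80 in wild type 3, where Cxcl10 was 16.4 and 140 FPKM. In wild type 1 the sum was 0.761 and Cxcl10 was 16.3 FPKM. Of 5 dendritic cell markers Ccr7 alone was tested. Their sums were 6.14, 3.95 and 3.78 FPKM in wild type, 7.40, 5.25 and 3.56 in M-Shp2-/- and 1.50, 1.03 and 1.35 in SHP099, and Ccr7 fell in SHP099 against wild type (−1.52, limma adjusted p 0.0192). The mast cell list (Kit the most abundant of 5) summed to 6.10, 4.76 and 6.01 FPKM in wild type, 2.76, 3.19 and 1.60 in M-Shp2-/- and 0.675, 0.564 and 0.970 in SHP099. The groups did not overlap in these sums. Kit alone of the list was tested, and it passed the looser rule in no comparison on all libraries. Its M-Shp2-/- values overlapped those of wild type and of SHP099. The eosinophil list (Il5ra the most abundant of 3) had 0 genes tested. Its sums were 0.0537, 0.125 and 0.0841 in wild type, 0.276, 0.212 and 0.288 in M-Shp2-/- and 0.0317, 0.00997 and 0 in SHP099. They too did not overlap, but all were at 0.288 FPKM or less. Groups did not overlap for 19.1% of all genes in M-Shp2-/- against wild type. The share was 34.6% in SHP099 against wild type and 17.7% in M-Shp2-/- against SHP099. Sums of 5 resident peritoneal macrophage markers (Prg4 the most abundant) ran from 10.1 to 27.2 FPKM. Among the macrophage markers Csf1r rose in SHP099 against wild type (1.38, limma adjusted p 0.0222), whereas 5 of the 8 had estimates below 0 (median of the 8 −0.23) and none of these passed. In M-Shp2-/- against SHP099 without M-Shp2-/- 3, 3 of the 8 fell and 1 rose by the looser rule (median −0.68). Of the neutrophil markers 1 fell and 1 rose there, and Kit and Ccr7 rose, where 19.9% of all genes passed. The part of any of these cell types in the chemokine results was not tested.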

How the data were processed

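The authors deposited FPKM values, 1 column for each of the 9 libraries. Per the submitters' processing notes, CASAVA 1.8, HISAT2 2.0.4 and HTSeq 0.9.1 were used, whereas the FPKM tool, genome build, annotation and strand setting are not given in the sources used here. The values are not counts, so the study's count test was replaced by limma 3.58.1 (R 4.3.3, trended eBayes, Benjamini-Hochberg adjustment) on log2(FPKM + 1), with the 6 libraries of each comparison. Reads were recovered from FPKM, depth and the mean transcript length (96.3% to 96.7% of values up to 50 reads were whole within 0.05, against 10% by chance) and served voom as an alternative. Symbols and positions came from GENCODE M21. The members and gene lists were chosen with earlier results of these data known. Set to be named were all members, Ptpn11, every tested ligand, receptor and enzyme, and of each other list the 3 most abundant genes and those with an adjusted p no greater than 0.05. Marker lists are given more briefly, and 1 of them is not described. Other settings tried were the pseudocount, filter, scaling, tool, joint fit, replicate block and single libraries left out, and 2 were added after seeing the data. The procedures were tested on simulated data. Plots were drawn with matplotlib 3.10.9, and tables were handled with pandas 2.3.3 and numpy 2.4.6 under Python 3.11.15.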

Additional observations from a re-analysis of the deposited data

How the results depend on the processing

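The count of members passing the strict rule kept its value in 44 of 46 alternatives. In SHP099 against wild type it was 1 at an adjusted p no greater than 0.05 with no fold threshold, and it ranged from 0 to 1 with single libraries left out, being 1 without wild type 3. The median log2 fold changes of both classes moved by less than the spread between replicates in 86 of 86 alternatives. That spread was as wide as 1.14, for the interferon-induced members in M-Shp2-/- against wild type. The tally therefore does not show that the medians were steady. Of 344 values of single members, 319 kept their direction and their side of the strict rule and 24 changed direction, all of Cxcl5, Cxcl9, Cxcl13 or Cxcl16. This tally does not cover the looser rule, under which Cxcl3 in SHP099 against wild type kept its call in 9 of 14 alternatives. In M-Shp2-/- against wild type, Cxcl5 was −0.35 with the stromal score as a covariate and −1.21 with wild type 3 and M-Shp2-/- 3 left out together, both alternatives chosen after seeing the data. With single libraries left out it ran from −0.67 to 1.13, and Cxcl13 from −0.90 to 0.0068. In SHP099 against wild type, Cxcl9 was 0.036 with a pseudocount of 0.1 FPKM, 0.11 with voom and 0.38 with the stromal score, Cxcl5 was −0.30 with the stromal score, and Cxcl16 was −0.049 with median-of-ratios scaling. Leaving out single libraries there gave −0.17 to 1.14 for Cxcl5, −0.50 to 0.84 for Cxcl9, −0.68 to 0.091 for Cxcl13, −0.044 to 0.31 for Cxcl16 and −2.65 to −1.92 for Cxcl3. In M-Shp2-/- against SHP099, Cxcl5 was 0.12 with a pseudocount of 5 FPKM and ran from −1.04 to 0.71 with single libraries left out, and Cxcl13 from −0.57 to 0.23. The cause was not tested.

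Numbers of genes passing the strict rule also moved. In SHP099 against wild type 19 genes passed, against 9 with voom, 0 without the expression filter, 0 to 26 with single libraries left out and 15 with the stromal score. In M-Shp2-/- against wild type 1 gene passed, against 3 with median-of-ratios scaling, 2 with all 9 libraries in 1 fit and 0 without the filter or with any 1 library left out. In M-Shp2-/- against SHP099 0 genes passed, against 159 without M-Shp2-/- 3. Without the filter 26663 genes were tested and the limma adjusted p of Cxcl3 in SHP099 against wild type was 0.109. With the stromal score its limma adjusted p was 0.0107, and in M-Shp2-/- against SHP099 it was 0.0387.

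It is not settled here whether the replicate numbers paired the libraries. Replicate 3 was the highest library of every group for Cxcl1, Cxcl9, Cxcl10, Cxcl16 and the summed interferon-stimulated genes. For the other members it was not the highest in every group. Deviations of same-numbered libraries correlated at 0.49, −0.43 and 0.19 between M-Shp2-/- and wild type, −0.04, −0.09 and 0.45 between SHP099 and wild type, and −0.01, 0.18 and −0.05 between M-Shp2-/- and SHP099, and in each comparison 1 of 3 libraries correlated best with its own number. When replicate numbers entered the fit as a block, 0 members passed the strict rule in all 3 comparisons, as were the genes passing it. Cxcl3 in SHP099 against wild type had a log2 fold change of −2.20 and a limma adjusted p of 0.0404 in the block fit. In M-Shp2-/- against wild type the block took the SE of Cxcl10 from 0.84 to 0.43 (limma adjusted p 0.214). That of Cxcl9 went from 0.73 to 0.36 (limma adjusted p 0.214).

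With 3 libraries a group, wide spread within groups limits what Cxcl5, Cxcl9 and Cxcl10 can show, and the few reads of Cxcl11 limit what it can show. A value that missed a threshold does not show that groups were alike. FPKM shares 1 total within a library, so abundant genes bear on the rest.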
